A study of Homo sapiens with 16 samples.

Results

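The 10 genes described here encode subunits of the transcription factor NF-kB and gene products that feed back on it or follow it. They were selected by name, with earlier results of these data known, so counts over them are descriptions. NFKB1, NFKB2, RELA, RELB and REL are the subunit genes. NFKBIA, NFKBIE and TNFAIP3 encode inhibitors, and TRAF1 and IL32 are genes that NF-kB is known to induce. All 10 were found by gene name among the 14857 genes of the deposited table. The cells were MDA-MB-231, a human triple-negative breast cancer line, with a tet-off system in every culture, in which doxycycline keeps an introduced gene silent. The clones E11 and H3 carried a plasmid for tristetraprolin (TTP, the product of ZFP36, which binds AU-rich elements of mRNAs and speeds their decay). The clones EV_A and EV_B carried the empty vector and served as controls. Each of the 4 clones gave 4 biological replicate libraries, 16 in all.

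Per the labels' protocols, all cells grew in medium with G418 and hygromycin, and cells with TTP also received doxycycline at 2 µg/mL. Drugs were removed for 24 h or longer before an experiment. Each arm held 2 clones, and the labels give doxycycline for the TTP clones alone. TTP, clone and doxycycline history therefore cannot be told apart. In the fits with a separate group for each clone, each p-value rests on how far cultures within a clone differ. Differences between clones of an arm also enter the p-values of the model with 2 groups and of the exact permutation tests. With reads summed per clone, each clone gives a single value, so the spread is that between clones. Groups follow the library names, since 7 of the 8 libraries named TTP have titles that say EV. ZFP36 was between 10160.1 and 15041 normalized counts in the 8 libraries named TTP, against 213 to 282 in the 8 named EV, so its level goes with the library names.

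Reads on the listed genes numbered 14380767 to 22066098 per library. Replicate 3 of H3 and replicate 4 of EV_B stood farthest from the other libraries of their clone, with an SD over genes of the log2 deviation of 0.32 and 0.29, against 0.22 to 0.26 in the others. Leaving out both changed the call in TTP against EV of none of the 10 genes. The line's markers VIM and CD44 averaged 23174 and 10222 normalized counts in E11, 22150.4 and 10051 in H3, 32735 and 15642 in EV_A and 32200.5 and 14071 in EV_B. Of 8 genes listed to check the line, present or absent, 5 were measured. ESR1, PGR and CDH1 were not found by name among the 14857 genes. ERBB2 was higher in TTP than in EV clones (limma log2 change 0.31). VIM (-0.52), CD44 (-0.55), EPCAM (-0.22) and KRT18 (-0.08) were lower. Of markers of other cell types, 5 of 11 immune, 2 of 6 endothelial and 5 of 7 fibroblast genes were measured. Their summed level was 128 to 192, 353 to 446 and 421 to 732 normalized counts in TTP libraries, against 176 to 249.7, 180.5 to 216 and 373 to 751 in EV libraries. The endothelial sum, of KDR and ESAM, thus did not overlap between the arms. PECAM1, CDH5 and VWF, which define endothelium, were not found by name among the 14857 genes. The part of other cells in the results was not tested.

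NF-kB proteins act as dimers. The precursor proteins of NFKB1 and NFKB2 are processed to the subunits p50 and p52, which pair with RELA, RELB or REL. In resting cells inhibitor proteins such as IκBα (NFKBIA) and IκBε (NFKBIE) hold the dimers in the cytoplasm until the IκB kinase complex marks them for degradation. Canonical signalling, downstream of receptors such as the TNF receptor, releases mainly dimers with RELA, while the noncanonical route, through the kinase NIK (MAP3K14), turns p100 into p52 and works with RELB. NF-kB induces genes of its own inhibitors, which closes feedback loops, and breast cancer cells of the triple-negative type are known for persistent activity of this factor.

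Since NF-kB binds a short DNA element, the kappaB site, the 250 bases before each annotated start in RefSeq (GRCh38.p14) were searched on both strands for the kappaB consensus decamer. Promoters were listed for 8 of the 10 genes, and 6 of these 8 held at least 1 match in at least 1 promoter. Of 10384 listed genes with a promoter listed there, 15.9% did, and of all 35116 promoters 9.96% held a match. RELA and TRAF1 held no match in their windows. The windows are shown because they hold a match to the element that NF-kB is known to bind. Matches are in capitals, overlapping ones run together, and each sequence is read 5′ to 3′ on the gene's strand.
NFKB1: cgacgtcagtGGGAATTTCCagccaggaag
NFKB2: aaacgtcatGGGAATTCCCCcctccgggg
NFKB2: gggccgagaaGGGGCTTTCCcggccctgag
NFKB2: aacccccaccGGGGCTTCCCggattctcct
NFKB2: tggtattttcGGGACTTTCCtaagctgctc
REL: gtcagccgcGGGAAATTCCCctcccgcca
NFKBIA: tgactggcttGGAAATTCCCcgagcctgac
TNFAIP3: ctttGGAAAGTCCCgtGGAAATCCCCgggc
IL32: ctgtactcaGGGAGTTTCCCcagccagct

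The NFKB1 window lies at chr4:102501300-102501329 on the plus strand, and its match begins 49 bases before the start. The 4 NFKB2 windows lie on the plus strand at chr10:102394462-102394490, chr10:102394490-102394519, chr10:102395519-102395548 and chr10:102395674-102395703, before 2 of its 3 listed starts. The REL window lies at chr2:60881518-60881546 (plus strand), with its first match 47 bases before the start. For NFKBIA it lies at chr14:35404811-35404840 (minus strand), 81 bases before the start. TNFAIP3 carries 2 separate matches at chr6:137867188-137867217 (plus strand), the first of them 67 bases before the start. The IL32 window at chr16:3065295-3065323 (plus strand) begins its first match 99 bases before the start. The starts meant here are those of RefSeq. GENCODE, used for the gene bounds given below, places starts differently, so in all but NFKBIA the windows overlap those bounds. A match is a description of the letters and not a measured binding site.

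TTP is known to bind a heptamer in 3′ UTRs, written TATTTAT in DNA letters, most strongly within the nonamer TTATTTATT. In the longest 3′ UTR that GENCODE 29 (GRCh38) annotates for each gene, TATTTAT on the transcript strand was found in 3 of the 10 genes, REL, NFKBIA and TNFAIP3, and TTATTTATT in 2, REL and TNFAIP3. Of 12564 listed genes with such a UTR 35.4% held the heptamer and 9.40% the nonamer. REL held 4 heptamers in a 3′ UTR of 9075 bases, NFKBIA 2 in 502 bases and TNFAIP3 1 in 3156 bases. The third site of REL, both sites of NFKBIA and the single site of TNFAIP3 are shown, with the heptamer in capitals, because they hold the element that TTP is known to bind.
REL: tgatatataatTATTTATtttgccctttt
NFKBIA: accacattttaTATTTATtgtgcttcgag
NFKBIA: tttatgatgtaTATTTATtaaacagattt
TNFAIP3: gtaattcacttTATTTATtttattacaaa

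These stretches lie at chr2:60925006-60925034 (plus strand), chr14:35401699-35401727 and chr14:35401520-35401548 (minus strand) and chr6:137882298-137882326 (plus strand). The UTRs of the other 7 genes held no TATTTAT, which says nothing of other elements.

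All 10 genes passed as higher in TTP than in EV clones when the clones of each arm were averaged (limma, adjusted p under 0.05 over all 14857 genes), and 0 passed as lower. Of all genes 35.4% were higher and 34.6% lower in this comparison, so one direction alone is common here. The largest rises were in IL32 (log2 change 1.93 ± 0.079 SE), TRAF1 (1.47 ± 0.056), TNFAIP3 (1.18 ± 0.065), RELB (1.03 ± 0.048) and NFKBIE (0.72 ± 0.032). NFKB2, NFKB1, REL, RELA and NFKBIA rose by 0.37, 0.32, 0.28, 0.25 and 0.18 on the log2 scale. The median change was 0.54 over the 10 genes and 0.00 over all genes. Since the 10 genes were chosen with earlier results of these data known, these counts describe them and are no test. The libraries are bulk, so a change in the share of cells and a change in RNA per cell cannot be told apart.

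A stricter count set each TTP clone against each EV clone, 4 contrasts, and asked for 1 sign and an adjusted p under 0.05 in all. By that rule 8 of the 10 genes were concordant and higher, against 19.0% of all genes concordant higher and 19.5% concordant lower. NFKBIA and REL were the other two. For the same 8 genes every TTP library lay above every EV library, as it did for 15.6% of all genes. When the reads of a clone were added up, which leaves 2 values against 2, edgeR called NFKB2, RELB, NFKBIE, TNFAIP3, TRAF1 and IL32 higher, 6 of 10, as it did 14.5% of all genes. NFKB1 (adjusted p = 0.0562), RELA (0.0519), REL (0.138) and NFKBIA (0.451) did not pass by that test. Of the 10, the authors' deposited table gave 9 as higher at an adjusted p under 0.05, as it did 32.0% of all genes. It did not call NFKBIA (log2 change 0.16, adjusted p = 0.0961).

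**Figure D1:**
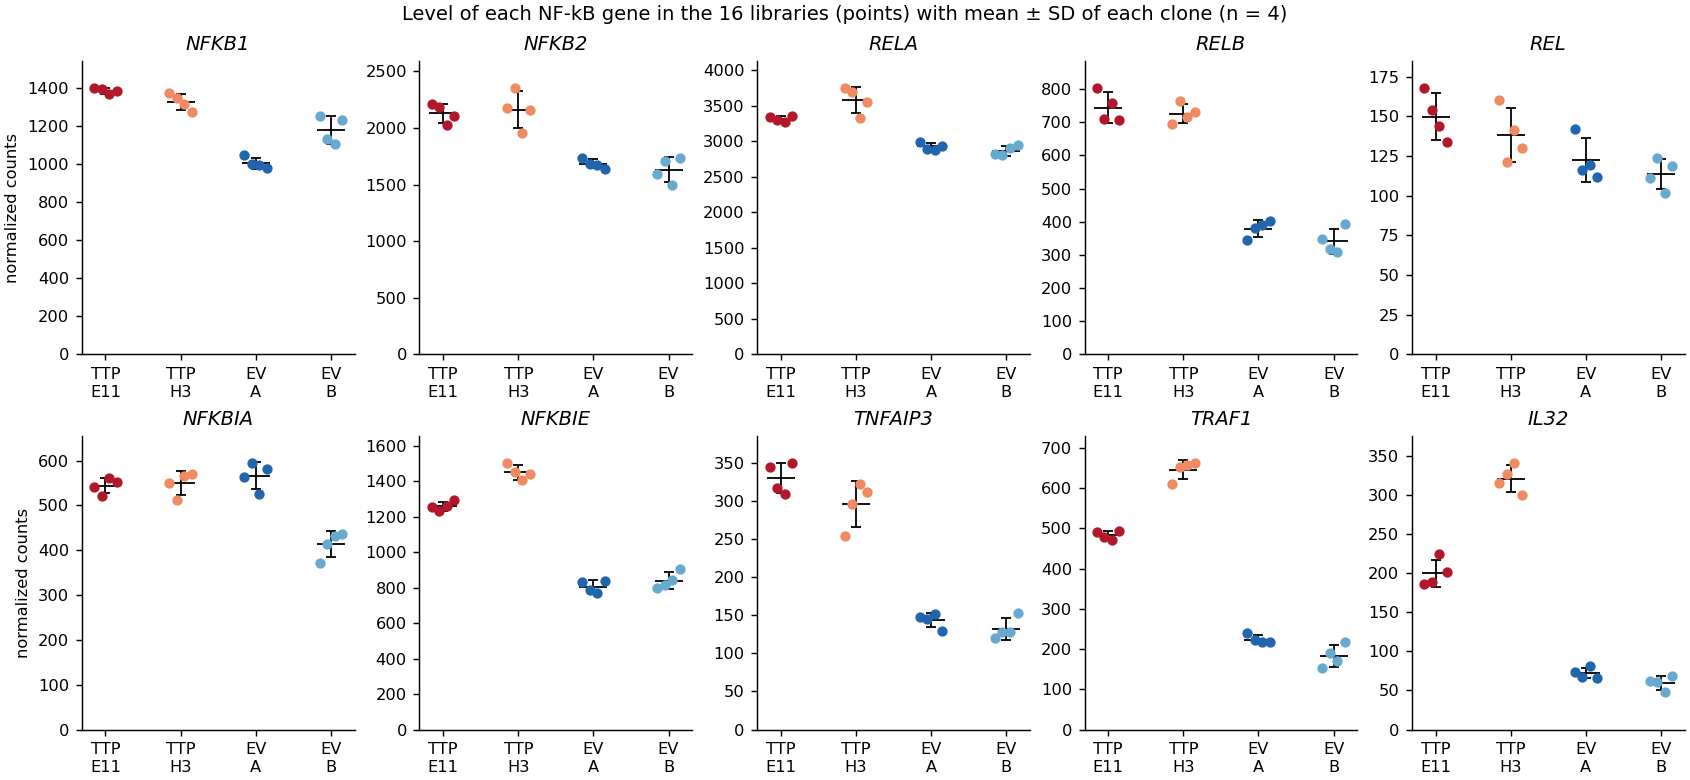
Normalized counts of each of the 10 genes (y axis, from 0) in every library (points) of the clones TTP_E11, TTP_H3, EV_A and EV_B (x axis), with the mean and SD of each clone (n = 4). TTP libraries lie above all EV libraries for 8 genes, while the ranges overlap for REL and NFKBIA.

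Among the subunits, RELB changed most. RELB (chromosome 19, 45001430 to 45038198, GRCh38) encodes the subunit of the noncanonical route. It stood at 804, 709, 757 and 706 normalized counts in replicates 1 to 4 of E11 and at 693, 763, 715 and 731 in H3, against 344, 382, 389.7 and 401 in EV_A and 348, 318, 307 and 392 in EV_B. The lowest TTP library, at 693, was well above the highest EV library, at 401. The log2 change was 1.05 in E11 against the EV clones (limma adjusted p = 2.29e-16) and 1.01 in H3 (adjusted p = 5.39e-16). The TTP clones did not pass as different from each other (-0.03, 95% interval -0.17 to 0.10, adjusted p = 0.809).

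NFKB2 (chromosome 10, 102394110 to 102402529), which encodes the precursor p100 of p52, rose less. It was at 2207, 2181, 2025 and 2102 normalized counts in E11 and 2174, 2354, 1956 and 2157 in H3, against 1736, 1685, 1671 and 1641 in EV_A and 1591, 1706, 1495 and 1735 in EV_B. The arms do not overlap, but replicate 3 of H3 at 1956 comes nearest to the EV libraries. Log2 changes were 0.36 in E11 and 0.38 in H3 (limma adjusted p = 6.31e-09 and 2.15e-09).

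NFKB1 (chromosome 4, 102501329 to 102617302) encodes p105, the precursor of p50. Its normalized counts were 1401, 1394, 1365 and 1382 in E11 and 1372, 1345, 1318 and 1275 in H3, against 1046, 998, 995 and 979 in EV_A and 1254, 1132, 1105 and 1229.9 in EV_B. The gap between the lowest TTP library (1275) and the highest EV library (1254) is narrow, and EV_B lies between EV_A and the TTP clones. NFKB1 was higher in EV_B than in EV_A by 0.23 on the log2 scale (limma adjusted p = 0.0001), a comparison with no TTP plasmid on either side. The change in E11 was 0.46 against EV_A and 0.23 against EV_B, and in H3 it was 0.40 and 0.17.

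RELA (chromosome 11, 65653596 to 65663094) encodes p65, the main activating subunit of the canonical route. It stood at 3338, 3298, 3264 and 3354 normalized counts in E11 and 3752, 3689, 3324 and 3554 in H3, against 2992, 2889, 2883 and 2938 in EV_A and 2817, 2799.6, 2901 and 2945 in EV_B. Each TTP library is above each EV library by a modest margin. The log2 change was 0.19 in E11 and 0.30 in H3 (limma adjusted p = 1.68e-06 and 2.59e-10). A long noncoding gene on the opposite strand overlaps RELA in GENCODE, and the labels do not state whether strand was kept.

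REL (chromosome 2, 60881521 to 60931610) encodes c-Rel, a subunit best known from lymphoid cells. Its level was low, at 134 to 168 normalized counts in E11 and 121 to 160.5 in H3, against 112 to 142 in EV_A and 102 to 124 in EV_B. These ranges overlap between the arms. In GENCODE 2 noncoding genes on the same strand overlap REL, so the counting could split reads. The log2 change was 0.34 in E11 (limma adjusted p = 0.00265) and 0.22 in H3 (adjusted p = 0.0426). In H3 the call was lost without replicate 1 (adjusted p = 0.214) or 3 of H3 (0.0819), replicate 2 (0.0674), 3 (0.0585) or 4 of EV_A (0.0758), or replicate 1 (0.0575) or 3 of EV_B (0.0795).

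**Figure D2:**
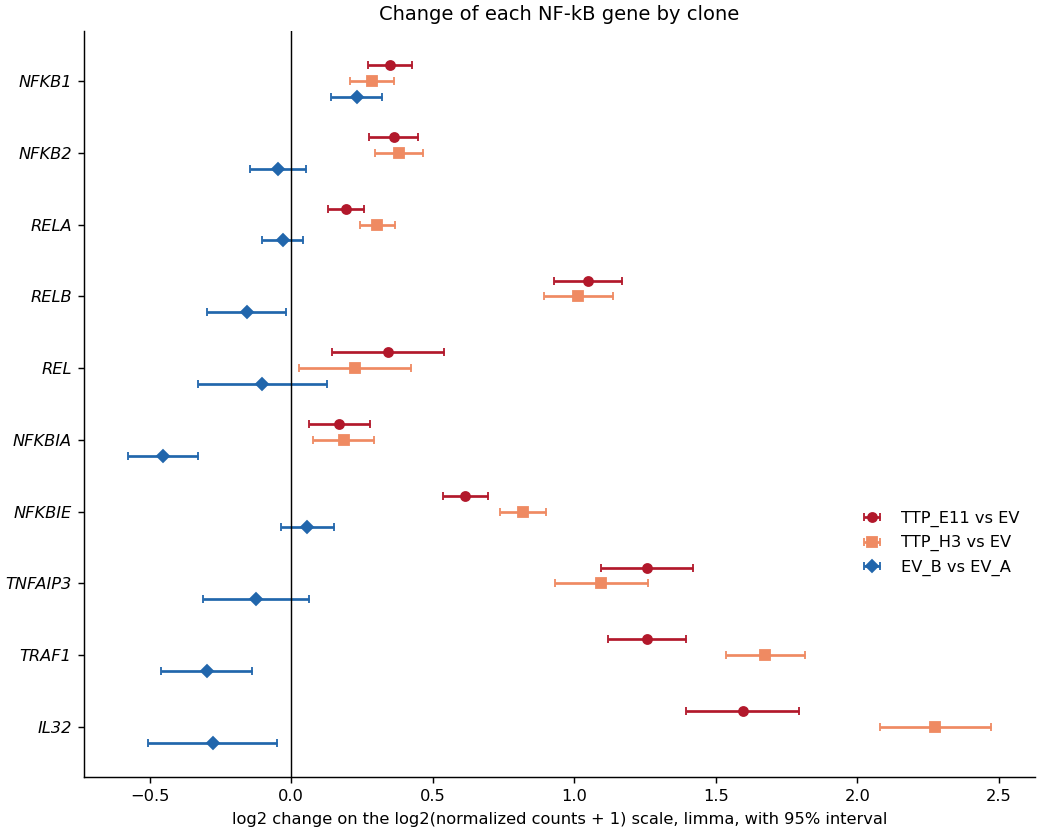
Log2 change of each gene (x axis, limma, with 95% interval) in TTP_E11 and in TTP_H3 against both EV clones, and in EV_B against EV_A. Both TTP clones are right of 0 for all 10 genes, and EV_B differs from EV_A most in NFKBIA (-0.45).

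The inhibitors did not move by like amounts. NFKBIE (chromosome 6, 44258166 to 44265788), which encodes IκBε, stood at 1254, 1229, 1261 and 1292 normalized counts in E11 and 1503, 1449, 1404 and 1442 in H3, against 829.8, 787, 767 and 839.6 in EV_A and 797, 812, 841 and 904 in EV_B. Every H3 library was above every E11 library, and every E11 library above every EV library. NFKBIE was 1.53-fold higher in E11 and 1.76-fold higher in H3 than in the EV clones (limma adjusted p = 6.55e-15 and 5.63e-18, on the log2(value + 1) scale).

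TNFAIP3 (chromosome 6, 137867188 to 137883312) encodes A20, an enzyme that edits ubiquitin chains and dampens signalling from the TNF receptor. Its normalized counts were 345, 317, 309 and 350.2 in E11 and 254, 296, 322 and 312 in H3, against 148, 146, 152 and 129.6 in EV_A and 119.9, 128, 127 and 153 in EV_B. The lowest TTP library, replicate 1 of H3, was at 254 and the highest EV library at 153. The fold was 2.39 in E11 and 2.14 in H3 (limma adjusted p = 4.64e-15 and 1.37e-13). An antisense gene overlaps TNFAIP3 in GENCODE, so reads of the pair cannot be told apart without strand.

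NFKBIA (chromosome 14, 35401511 to 35404749), which encodes IκBα, the most rapidly induced inhibitor, behaved otherwise. It stood at 542, 521, 561 and 553 normalized counts in E11 and 550.1, 513, 567 and 569.6 in H3, against 563, 595, 526 and 581 in EV_A and 372, 413, 432 and 437 in EV_B. Both TTP clones overlapped EV_A, and EV_B alone was low. Against EV_A the log2 change was -0.06 in E11 (95% interval -0.18 to 0.07, limma adjusted p = 0.431) and -0.04 in H3 (-0.17 to 0.08, adjusted p = 0.56). Against EV_B it was 0.40 and 0.41 (adjusted p = 1.08e-06 and 5.82e-07). The averaged rise of 0.18 thus held against 1 of the 2 EV clones, and it did not pass in a model with 2 groups and no clones (adjusted p = 0.0688).

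Of the induced genes, TRAF1 (chromosome 9, 120902393 to 120929173) encodes an adaptor of TNF receptors that restrains cell death. It was at 490.2, 478, 470.0 and 494 normalized counts in E11 and 611, 652, 656 and 663 in H3, against 239, 223, 216 and 217 in EV_A and 154, 189.5, 170.3 and 218 in EV_B. The 3 levels, H3 above E11 above EV, do not overlap. TRAF1 was 2.39-fold higher in E11 and 3.19-fold higher in H3 than in the EV clones (limma adjusted p = 7.92e-17 and 6.94e-20).

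IL32 (chromosome 16, 3065297 to 3082192) encodes a proinflammatory cytokine found in humans and missing from rodents. A noncoding gene on the opposite strand overlaps it, as does the small nuclear RNA gene RNU1-125P on the same strand. Its normalized counts were 186, 189, 224 and 201 in E11 and 315, 326, 341 and 301 in H3, against 73.6, 67.8, 81.4 and 66.6 in EV_A and 61.6, 61.4, 47.6 and 68.6 in EV_B. All 4 H3 libraries exceeded all E11 libraries, and both clones exceeded all EV libraries. The fold was 3.02 in E11 and 4.84 in H3 (limma adjusted p = 1.54e-15 and 2.21e-19). In TTP against EV 212 of the 14857 genes rose more than IL32 and 364 more than TRAF1. Both are also expressed by immune cells. Of the 5 measured immune markers, CSF1R was lower in TTP, at 35.2 ± 5.80 normalized counts in E11 and 42.4 ± 13.1 in H3, against 120.3 ± 9.92 in EV_A and 62.7 ± 10.5 in EV_B. CD8A, CD14, CD68 and LYZ did not pass. PTPRC, which marks all leukocytes, was not found by name among the 14857 genes. The part of immune cells in these levels was not tested.

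The TTP clones were compared directly. H3 was above E11 in 4 of the 10 genes and below it in 0, where 11.7% of all genes passed in either direction. IL32 was higher in H3 by 0.68 on the log2 scale (limma adjusted p = 7.97e-05), TRAF1 by 0.42 (0.000449), NFKBIE by 0.20 (0.00309) and RELA by 0.11 (0.0398). ZFP36 was also higher in H3, at 14986, 14097, 13337 and 15041 normalized counts, against 10941, 10160.1, 10322 and 10505 in E11. The RELA call was lost without any 1 of 9 libraries: replicates 1 to 4 of E11, replicates 1, 2 and 4 of H3 and replicates 2 and 4 of EV_A (adjusted p up to 0.142). For RELB, TNFAIP3, NFKB1, NFKB2, REL and NFKBIA the test of H3 against E11 did not pass, with intervals that reach at most 0.35 from 0 on the log2 scale. Taken clone by clone, all 10 genes were higher in E11 than in the EV clones, as were 32.6% of all genes, and all 10 in H3, as were 32.7%.

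The EV clones gave a measure of how far clones without the TTP plasmid differ. In EV_B against EV_A, 36.8% of all genes passed, and 3 of the 10 did. NFKB1 was higher in EV_B, and NFKBIA (log2 change -0.45, limma adjusted p = 5.18e-07) and TRAF1 (-0.30, adjusted p = 0.00298) were lower. IL32 and RELB missed the threshold, with log2 changes of -0.28 (adjusted p = 0.051) and -0.16 (0.0726). Both passed as lower in EV_B without replicate 4 of EV_B (adjusted p = 0.0196 and 0.00785), and RELB did without replicate 1 of EV_A (0.0287). IL32 also passed without replicate 3 of H3 (0.0474) or replicate 4 of EV_A (0.0444). The scaling decided these calls too. IL32 passed with TMM (0.0427), upper-quartile (0.0433) or total-read scaling (0.0296) and among genes with a mean of at least 50 (0.0446), and RELB with total-read scaling (0.0306). Side by side, the log2 change in TTP against EV and that in EV_B against EV_A were 0.18 and -0.45 for NFKBIA and 0.32 and 0.23 for NFKB1. They were 0.72 and 0.06 for NFKBIE and 1.18 and -0.12 for TNFAIP3.

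Ratios within a library do not depend on its scaling. The ratio of RELB to RELA was higher in TTP, with a mean log2 ratio of -2.23 in TTP and -3.01 in EV libraries, a difference of 0.78. The ranges, -2.43 to -2.05 in TTP and -3.23 to -2.87 in EV, do not overlap. The exact permutation test (two-sided, 8 TTP against 8 EV libraries) had p = 0.000155, its lowest possible value, or 0.000259 when adjusted by Benjamini-Hochberg over 5 ratios. It takes no account of the 4 clones to which the libraries belong. The ratio of NFKB2 to NFKB1 did not pass that test. Its mean log2 ratio was 0.66 in TTP and 0.61 in EV (exact p = 0.43, adjusted 0.537), and the EV clones lay on both sides, at 0.74 ± 0.010 in EV_A and 0.47 ± 0.10 in EV_B (SD, n = 4). The ratio of REL to RELA did not pass either, at -4.58 in TTP and -4.61 in EV (exact p = 0.687, adjusted 0.687).

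Relative to NFKBIA, the other inhibitors were higher in TTP. The mean log2 ratio of NFKBIE to NFKBIA was 1.21 in E11 and 1.40 in H3, against 0.51 in EV_A and 1.02 in EV_B. That of TNFAIP3 to NFKBIA was -0.72 in E11 and -0.90 in H3, against -1.97 in EV_A and -1.64 in EV_B. For both ratios the 8 TTP libraries lay above the 8 EV libraries (exact p = 0.000155, adjusted 0.000259 each). In the first ratio EV_B lay nearer to E11 than to EV_A.

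**Figure D3:**
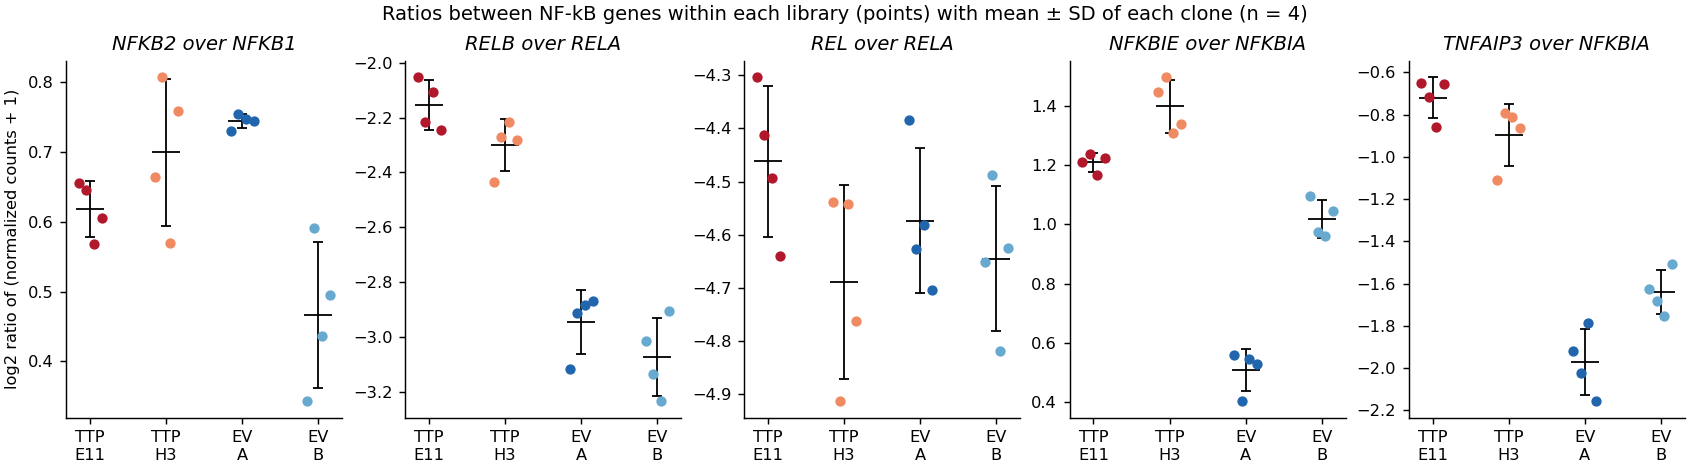
Log2 ratio of 2 genes within each library (y axis, each panel with its own range) by clone (x axis), with mean and SD (n = 4). RELB over RELA, NFKBIE over NFKBIA and TNFAIP3 over NFKBIA separate the arms, and NFKB2 over NFKB1 and REL over RELA do not.

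To compare levels between genes, normalized counts were divided by the length of all annotated exons. For any gene this length can exceed that of the transcripts present. Whether the order of genes would hold with transcript lengths was not tested. Per kilobase RELA was the most abundant of the 10, at 631 ± 34.9 normalized counts per kb in TTP and 529.9 ± 11.8 in EV libraries (SD, n = 8 each). NFKBIE followed in TTP, at 525 ± 41.3, and overlapped the next, NFKB2, at 478 ± 26.9. In EV the order of these was turned, with NFKBIE at 318.5 ± 16.3 below NFKB2 at 369.6 ± 18.2, and their ranges overlapped. RELB came next in TTP, at 242 ± 12.2, overlapping NFKBIA (230.5 ± 8.72), which overlapped NFKB1 (217 ± 6.78). In EV libraries RELB, at 119 ± 11.9, was below the range of NFKB1 (175 ± 17.1). TRAF1, IL32 and TNFAIP3 were lower, at 87.5 ± 13.7, 81.1 ± 20.7 and 62.0 ± 5.92 in TTP, each overlapping the next, against 31.5 ± 4.51, 20.6 ± 3.08 and 27.3 ± 2.58 in EV. REL was last in both arms, at 10.9 ± 1.21 in TTP and 8.97 ± 0.898 in EV. The union of exons for REL, 13170 bases, includes a long 3′ UTR, so its value per kilobase would be higher if most transcripts end earlier.

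**Figure D4:**
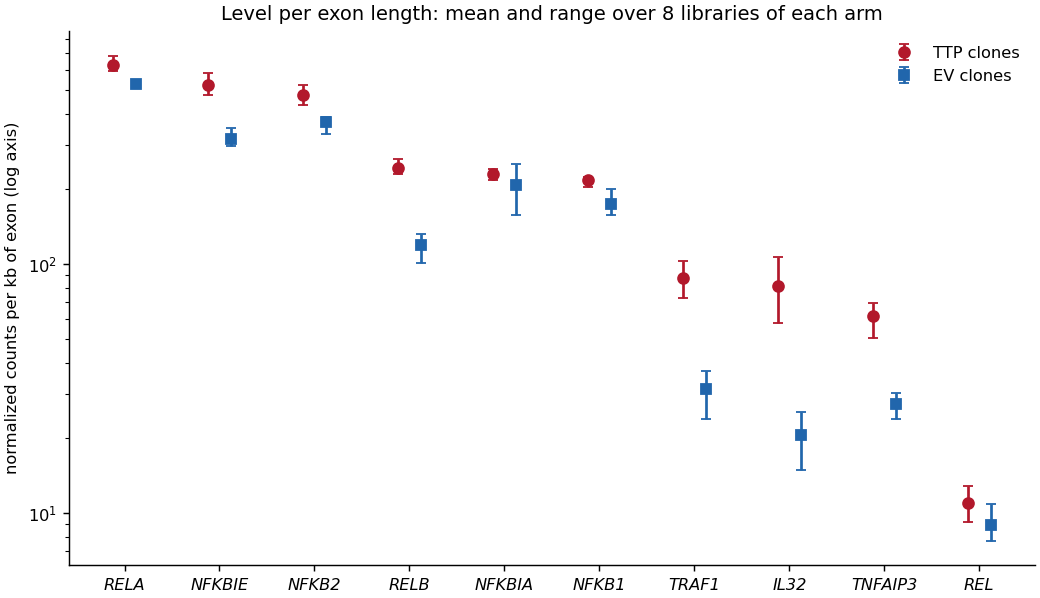
Mean normalized counts per kb of exon (y axis, log scale) of each gene in TTP and EV clones, with bars for the range over 8 libraries of an arm. The range of RELB overlaps that of NFKBIA and lies above that of NFKB1 in TTP clones, and lies below both in EV clones.

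The gene most like each of the 10 over the 16 libraries was taken by Pearson's r of log2 values, as a description. For IL32 it was TRAF1 (r = 0.987), and for TRAF1 it was SLC38A7 (0.987). For RELB it was STARD3 (0.989), for NFKBIE VPS18 (0.992), for TNFAIP3 SEMA6C (0.992), for NFKB1 DIAPH1 (0.981), for NFKB2 CXCL16 (0.963) and for RELA SLC35C2 (0.966). REL and NFKBIA had weaker best matches, ZNF708 (0.88) and ZNF467 (0.905). The libraries fall into 2 arms, so that 1116 genes had an r over 0.9 with NFKBIE and 0 had one with REL.

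The other genes of the pathway did not share one direction, and neither did all genes. Over all genes 35.4% were higher and 34.6% lower in TTP, with 19.0% concordant higher and 19.5% concordant lower. These shares stand beside the counts of each list below. Of 14 measured ligands and receptors among 20 listed, 7 were higher and 7 lower in TTP, with 6 concordant higher and 4 concordant lower and a median log2 change of 0.23, against 0.00 over all genes. TNF, IL1A and IL1B were not found by name among the 14857 genes. TLR4, the receptor for bacterial lipopolysaccharide, averaged 801 ± 34.3 normalized counts in E11 and 1348 ± 78.9 in H3, against 126 ± 18 in EV_A and 147 ± 2.34 in EV_B (log2 change 2.92, limma adjusted p = 3.04e-29). TNFRSF1B, TNF receptor 2, which binds TRAF1 and TRAF2, averaged 679.6 ± 27.8 in E11 and 686 ± 18.4 in H3, against 171 ± 12.4 in EV_A and 165 ± 7.11 in EV_B (2.02, adjusted p = 3.03e-26). LTB, a ligand of the noncanonical route, was low and varied, at 21.0 ± 5.45 in E11 and 33.6 ± 24.9 in H3, against 7.39 ± 3.44 in EV_A and 3.74 ± 1.56 in EV_B (2.08, adjusted p = 3.21e-08). Replicate 3 of H3, at 70.8, lay far above the other libraries of that clone, and without it the change was 1.87.

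Other receptors and ligands were lower. IL1R1, its partner IL1RAP and the ligand TNFSF12 had log2 changes of -0.62, -0.46 and -0.54 and were concordant. Their changes in EV_B against EV_A were -0.50 (limma adjusted p = 2.03e-05), -0.20 (0.0672) and 0.13 (0.258). With reads added up per clone IL1R1 and IL1RAP did not pass (edgeR adjusted p = 0.0554 and 0.0544). For TNF receptor 1 (TNFRSF1A) the log2 change was -0.29, it passed in fewer than 4 clone pairs and was lost with reads added up per clone (adjusted p = 0.104). EV_B against EV_A gave -0.28. The lymphotoxin beta receptor LTBR had a log2 change of -0.08, which vanished with EV_B alone as control (0.01, limma adjusted p = 0.874) and with total reads as the library size (0.00, adjusted p = 0.947). It also failed without replicate 2 of E11 (0.06) or replicate 1 of EV_B (0.0503).

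All 27 listed adaptors and kinases were measured, and 4 were higher, 11 lower and 12 did not pass (1 concordant higher, 6 concordant lower, median -0.04). The shares over all genes were 35.4% higher and 34.6% lower (19.0% and 19.5% concordant). The 3 core subunits of the IκB kinase complex were all lower and concordant. The kinase IKBKB averaged 725 ± 47.4 normalized counts in E11 and 790.2 ± 27.6 in H3, against 1066 ± 12.2 in EV_A and 869 ± 18 in EV_B (log2 change -0.35, limma adjusted p = 1e-10). The kinase CHUK and the regulatory subunit IKBKG changed by -0.23 and -0.42 (adjusted p = 4.99e-07 and 6.53e-05). IKBKG has a near-identical pseudogene that can share its reads, so its value is uncertain. With reads added up per clone none of the 3 passed (edgeR adjusted p = 0.0735 for IKBKB, 0.0618 for CHUK and 0.0556 for IKBKG). CARD10, a scaffold that links receptors to the kinase complex, and TAB3, a partner of the kinase TAK1, fell by 0.79 and 0.51 on the log2 scale. TAB1, another partner of TAK1, was the concordant higher gene (0.28), but not with reads added up per clone (edgeR adjusted p = 0.06).

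MAP3K14, which encodes NIK, averaged 1412 ± 68.1 normalized counts in E11 and 1758 ± 266 in H3, against 1296 ± 43 in EV_A and 1280 ± 147 in EV_B. Its log2 change of 0.29 passed (limma adjusted p = 0.00267) but not in all clone pairs, and not with reads added up per clone (edgeR adjusted p = 0.093). BIRC3, an inhibitor of apoptosis that limits NIK and is itself an NF-kB target, stood at 324 ± 41.2 in E11 and 298 ± 26.8 in H3, against 402 ± 26.4 in EV_A and 228 ± 9.66 in EV_B. The TTP clones lay between the EV clones, and the averaged log2 change of 0.03 did not pass (95% interval -0.09 to 0.15, adjusted p = 0.616). It was -0.37 with EV_A alone as control (adjusted p = 3.2e-05) and 0.44 with EV_B alone (2.81e-06).

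Of 17 further inhibitors and regulators, all measured, 6 were higher, 5 lower and 6 did not pass (3 and 3 concordant, median 0.02). These counts are near the shares over all genes, 35.4% higher and 34.6% lower (19.0% and 19.5% concordant). NFKBIB, which encodes IκBβ, averaged 963 ± 39.6 normalized counts in E11 and 1069.8 ± 61.3 in H3, against 654 ± 42.1 in EV_A and 769.9 ± 40.9 in EV_B (log2 change 0.52, limma adjusted p = 1.21e-13). The deubiquitinase CYLD and COMMD1, which promotes removal of RELA, were higher by 0.42 and 0.36, though COMMD1 did not pass with reads added up per clone (edgeR adjusted p = 0.0638). BCL3, an atypical IκB protein that pairs with p50 and p52 dimers, averaged 251 ± 17.6 in E11 and 234 ± 27.4 in H3, against 452 ± 16.9 in EV_A and 373 ± 54.8 in EV_B (-0.76, adjusted p = 2.74e-12). NKIRAS1 and NKIRAS2, small GTPases that bind IκB proteins, changed by -0.57 and -0.78.

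Of 20 measured target genes among 30 listed, 8 were higher, 11 lower and 1 did not pass (3 concordant higher, 6 concordant lower, median -0.16). All genes gave 35.4% higher and 34.6% lower (19.0% and 19.5% concordant). The adhesion molecule ICAM1 averaged 553 ± 10.8 normalized counts in E11 and 763 ± 54.6 in H3, against 399 ± 33.3 in EV_A and 296 ± 31.8 in EV_B (log2 change 0.92, limma adjusted p = 7.17e-17). The cytokine TNFSF15 and the transcription factor STAT5A rose by 2.06 and 0.74. CSF1, the macrophage growth factor, averaged 930.5 ± 32.6 in E11 and 949.6 ± 51.9 in H3, against 3950.5 ± 126 in EV_A and 1872 ± 215 in EV_B (-1.53, adjusted p = 1.53e-19). The proteoglycan SDC4 and the stress gene IER3 fell by 0.89 and 0.76 on the log2 scale. The chemokine CXCL8 was low, at 19.4 ± 0.855 in E11 and 33.1 ± 11.8 in H3, against 39.0 ± 9.45 in EV_A and 30.4 ± 2.83 in EV_B. Its log2 change of -0.43 passed (adjusted p = 0.0156), but not with EV_B alone as control (adjusted p = 0.22), in the model with 2 groups (0.0534) or with reads added up per clone (edgeR, 0.377). SOD2, the mitochondrial superoxide dismutase, was at 2222 ± 18 in E11 and 2184 ± 86.5 in H3, against 2318 ± 92.7 in EV_A and 2306 ± 117 in EV_B. Its change of -0.07 passed (adjusted p = 0.0297) but turned to 0.01 with total reads as the library size. Without replicate 1 of E11, replicate 3 of H3, replicate 2 or 3 of EV_A or replicate 1 or 4 of EV_B it did not pass either (adjusted p between 0.0504 and 0.0729), nor with either EV clone alone as control (0.0619 and 0.1). The lists were chosen with results of these data known, and their counts are descriptions.

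**Figure D5:**
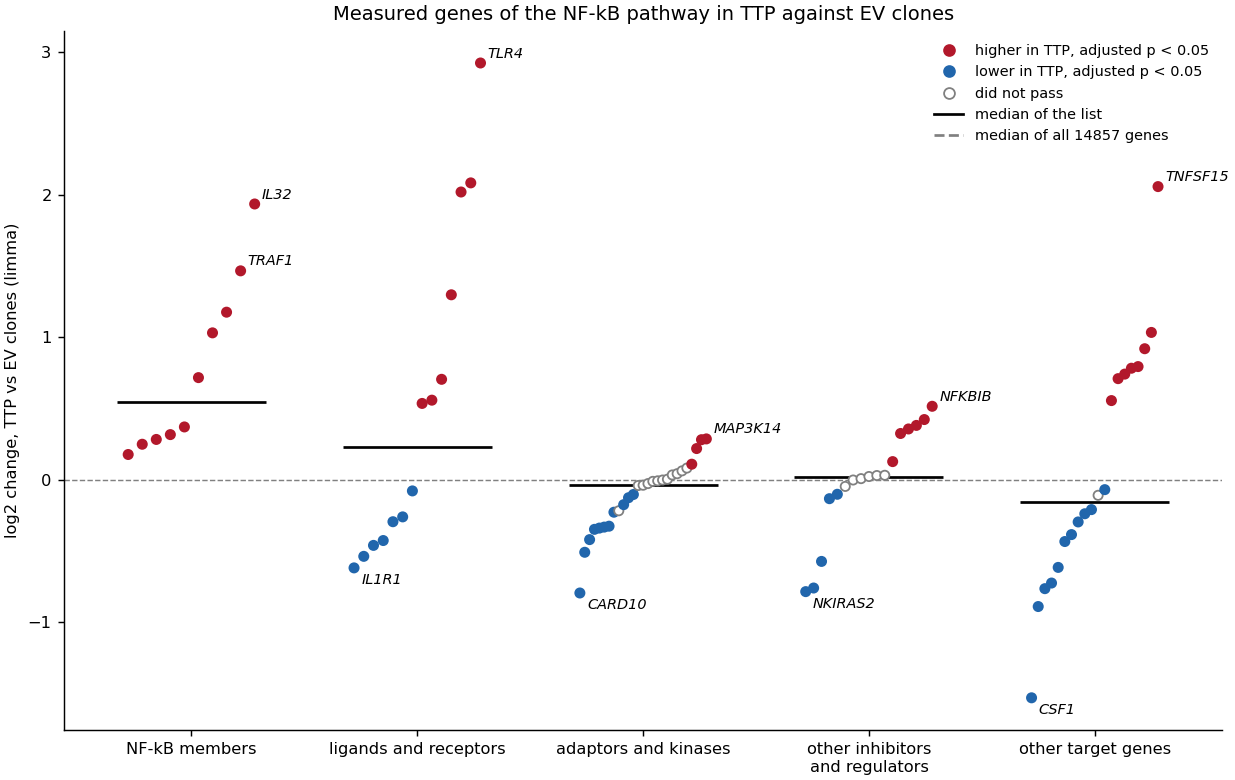
Log2 change in TTP against EV clones (y axis, limma) of the 10 genes and of the measured genes of 4 pathway lists (x axis), ordered by value within a list, with the median of each list and of all genes. The 10 genes lie above 0, while the 4 lists hold genes on both sides, from -1.53 (CSF1) to 2.92 (TLR4).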

How the data were processed

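The deposited file is a table of 14857 genes. For each library it gives a signal that the authors normalized, and the values show this to be reads over a single size factor. Genes below some limit are not in it (smallest mean 9.68). Per the file headers, 3 more columns of the table are results of the authors for TTP against EV: the log2 fold change, the p-value and its adjusted form. Tools named in the submitters' processing notes, with no role stated, are STAR 2.5.2b, Trimmomatic 0.36, DESeq2, Subread 1.5.2 and featureCounts, with the build GRCh38. The annotation and strand setting are not given in the sources used here. Reads were recovered by dividing by the worth of 1 read, and 100% of values came out whole to within 0.001. The check is weaker in replicates 1 and 3 of H3, where 1 read is worth 1.01 and 0.998.

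All 16 libraries entered 1 fit of limma 3.58.1 (R 4.3.3, robust trend) on log2(value + 1) with 4 clone groups, with Benjamini-Hochberg adjustment over all genes, a threshold of 0.05 and no filter. Fold changes of low genes are understated on this scale. The method was run on simulated data that held no difference between the clones of an arm. That run therefore cannot show how clone differences affect the calls. As alternatives, recovered reads were tested with DESeq2 1.42.0 and edgeR 4.0.16, other scalings, pseudocounts and controls, a filter on the mean, a 2-group model, reads summed per clone and a replicate block were used, and each library was left out in turn. On recovered reads edgeR called 10456 genes in TTP vs EV, where limma called 10405. Positions, exon lengths and 3′ UTRs are from GENCODE 29, which held 14820 of the listed genes, and promoters from RefSeq. Named pathway genes were the 3 higher and 3 lower concordant genes of each list with the largest change, and hub genes listed by role. The members and lists were chosen with earlier results of these data known.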

Additional observations from a re-analysis of the deposited data

Results flagged for a closer look

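The TTP clones H3 and E11 differed in 4 of the 10 genes by the direct test of one against the other (limma), a difference in which TTP level and clone cannot be told apart. The log2 difference, H3 minus E11, was 0.68 for IL32, 0.42 for TRAF1, 0.20 for NFKBIE and 0.11 for RELA. Among the other named genes, 8 differed. ZFP36 itself was higher in H3 by 0.45 (limma adjusted p = 1.71e-06). TLR4 was higher in H3 by 0.75 (log2 change 3.30 in H3 and 2.55 in E11 against EV), ICAM1 by 0.46 (1.15 and 0.69) and CXCL8 by 0.69 (-0.09 and -0.78). TNFRSF1A, SDC4 and IER3 fell less in H3, with differences of 0.15, 0.24 and 0.16. ZFP36L2, a relative of TTP, also fell less in H3, by a difference of 0.16. In these 12 of 43 genes compared H3 was above E11, and 11.7% of all genes passed in this contrast in either direction. EV_B against EV_A, with no TTP plasmid on either side, gave 36.8%.

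Single libraries lay far from the other 3 of their clone in 9 of 200 groups of 4 values, which cover the named genes, VIM, CD44 and the 5 ratios. Chance gives about 1 in 20, and none of the 9 concerned the 10 genes or their ratios. Replicate 3 of H3, one of the libraries that stood apart, was the highest for LTB (70.8 normalized counts), IL1R1 (250.4) and CXCL8 (50.9). Replicate 4 of EV_B, the other, was the highest for MAP3K14 (1500) and the lowest for SDC4 (1745). The rest were replicate 1 of H3 for STAT5A (275.5, low), replicate 1 of EV_A for TLR4 (153, high), replicate 2 of EV_A for TNFRSF1A (2711, low) and replicate 1 of EV_B for LTBR (1509, high).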

How the results depend on the processing

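Of 300 values of the 10 genes in TTP vs EV under alternatives, 294 kept their direction and call, 5 lost the call and 1, NFKBIA, turned to -0.049 with EV_A alone as control. The same 8 genes were concordant under each alternative that allows that count. With reads summed per clone, which leaves 2 values an arm, edgeR called 4280 genes in TTP vs EV and 6 of the 10. With total reads as the library size, TTP vs EV gave 6450 higher and 4060 lower genes, against 5261 and 5144 in the fit reported, and the median of all genes moved by 0.08 on the log2 scale. LTBR then turned to 0.0023 and SOD2 to 0.011. LTBR also turned to 0.0072 with EV_B alone as control. BIRC3 turned to -0.020 with reads summed per clone and to -0.37 with EV_A alone.

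Leaving out 1 library at a time, the count of TTP_H3 vs TTP_E11 was 1118 to 2261, against 1735. It was lowest without replicate 2 of E11 and highest without replicate 3 of H3, and was 2851 without replicate 3 of H3 and replicate 4 of EV_B, an alternative chosen after seeing the data, where NFKBIA in H3 against E11 turned to -0.00049. Values that did not pass changed sign when single libraries were left out. The ranges were -0.0042 to 0.068 for BIRC3 in TTP vs EV, -0.023 to 0.066 for NFKB2, -0.059 to 0.0031 for RELB and -0.0065 to 0.047 for NFKBIA in H3 against E11, and -0.0051 to 0.082 for the log2 ratio of REL to RELA. The cause was not tested.

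The replicate numbers did not pair libraries. Of 24 correlations between same-numbered libraries of different clones, which ran from -0.059 to 0.061, 0 exceeded 0.1, and 2 of 16 libraries correlated best with their own number. With the replicate block limma called 10354 genes in TTP vs EV and all 10 members as higher. Whether changes in low genes, such as REL, CXCL8 and LTB, can be resolved at this depth was not tested. Every comparison is limited by 2 clones an arm.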
